A study of Zea mays with 16 samples.

Results

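dhn1, also called rab17, encodes the best known dehydrin of maize. It was followed here under the gene identifier Zm00001d037894, which is 1 of 46430 identifiers in the count files and 1 of the 44146 nuclear gene models among them. The identifier was chosen because dhn1 is the classic maize dehydrin of cold, drought and abscisic acid response. The files carry no gene names, and RefSeq's maize gene table lists dhn1 and rab17 as synonyms of a single gene without this identifier, so the pairing of identifier and name comes from the selection and was not checked in the files.

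Dehydrins belong to the late embryogenesis abundant proteins, which are very hydrophilic, take no fixed fold in solution and carry lysine-rich repeats that contact membranes and other proteins when cells lose water. In maize, rab17 transcripts are known to accumulate in maturing embryos and in vegetative tissue given abscisic acid or deprived of water. Its promoter carries elements bound by abscisic acid-responsive and drought-responsive transcription factors, and the protein is phosphorylated in the embryo.

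The series profiled leaves of 4 maize inbred lines, each chilled at 4 °C or kept at 26 °C, with 2 libraries in each of the 8 groups and 16 libraries in all. The groups were chilled and control B73 (the line of the maize reference genome), chilled and control B104 (a line used for transformation), chilled and control CML333, and chilled and control M37W (the last 2 lines being parents of a widely used mapping population). Days had 14 h of light (250 µmol per square metre and second) and nights lasted 10 h. The sources used here do not give how long plants were chilled, their age, which leaf was taken or whether replicates came from separate plants, so the p-values measure only the spread between these libraries. Reads were taken from the 3′ end of polyadenylated transcripts, and a level is given in CPM, the count scaled by the library's total. In bulk leaf RNA, fewer cells that contain a transcript and less of it per cell cannot be told apart.

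Total counts ran from 1780344 to 2705564 per library, so that 3 counts, taken as the floor of detection, stood for 1.11 to 1.69 CPM. Some libraries stood apart. Across the tested genes, on log2(CPM + 1), both B104 control libraries correlated with the other 14 at 0.37 to 0.51, while pairs among those 14 reached 0.649 to 0.97. Noncoding RNA identifiers took 5.03% and 3.69% of counts in the B104 controls and at most 0.101% elsewhere. Of 8 plastid genes looked up as a leaf check, the B104 controls held 16 and 1 counts in sum, against 86 to 670 in the other 14 libraries. The leaf gene rbcL had at most 1 count and psbA had 0 counts in every library, which the poly(A) priming of the kit limits as a check. The second chilled CML333 library correlated more closely with the second control library of its line (0.852) than with the other chilled one (0.813). The first chilled CML333 library correlated more closely with chilled M37W replicate 2 (0.846) than with its own replicate. The part of these differences in the results for dhn1 was not tested, and the results that changed without these libraries are also given without them.

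dhn1 was scarce in most of the leaf libraries, chilled ones included. All 16 libraries held 479 counts of it, of which 345 (72% of the total) came from the 2 unchilled B104 libraries and 75 from the unchilled CML333 libraries. It had 0 counts in 4 libraries and no more than 3 counts in 9. In B104 and CML333, dhn1 was at the floor or at 0 in chilled leaves. The fall in B104 is measured against the control libraries that stood apart. In CML333 the second control library was itself at the floor, with 3 counts, so the fall rests on the first. In M37W both chilled libraries were above both control libraries, a difference that did not pass the test over all genes, and in B73 it was at or under the floor throughout.

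**Figure D1:**
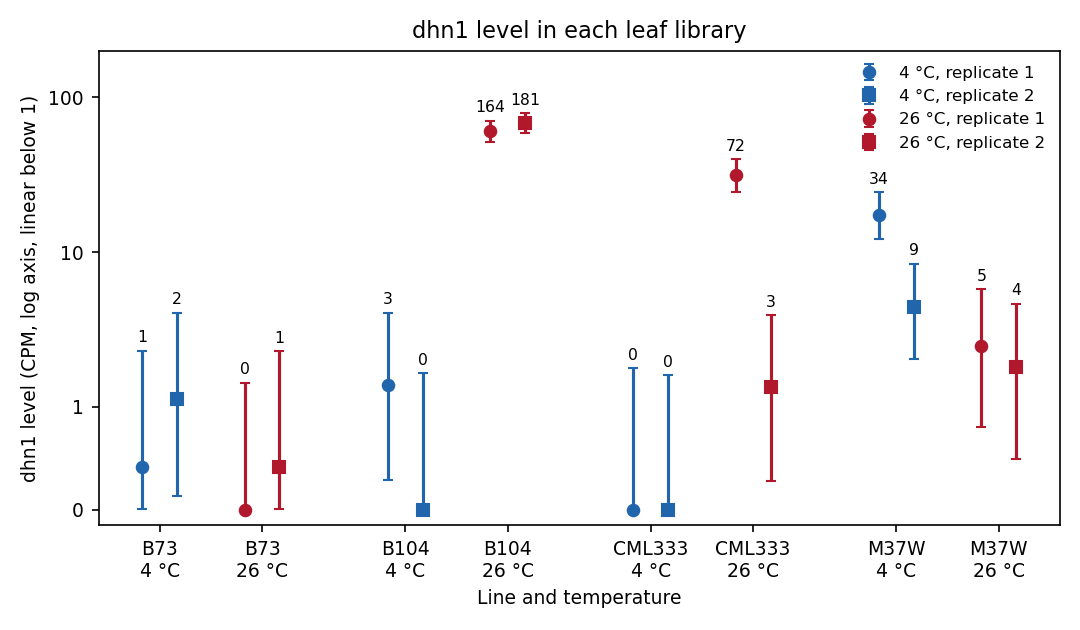
dhn1 level in CPM (vertical axis, logarithmic above 1 and linear below) in each of the 16 libraries, by line and temperature; points are libraries, bars are exact 95% Poisson intervals, which cover counting error only, and the digits above are counts. The B104 controls stood highest at 60.6 and 68.4 CPM, the CML333 controls lay far apart at 31.5 and 1.34 CPM, and both chilled CML333 libraries were at 0.

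In B104, dhn1 had 1.39 and 0 CPM in the chilled libraries, against 60.6 and 68.4 CPM in the control libraries. These rest on 3 and 0 counts in chilled leaves and on 164 and 181 counts in control leaves. The control replicates lay close together and far above both chilled ones. Over the group the chilled level was 94.7-fold lower (exact 95% counting interval 32.1 to 461), a ratio that rests on 3 chilled counts. Both chilled libraries were below both control libraries for 35.1% of the genes tested. The fall passed edgeR's quasi-likelihood test over all 16 libraries (log2 fold change -6.42, SE 1.32, Benjamini-Hochberg adjusted p 0.00162), and it was called under each alternative run and with each single library left out (adjusted p 5.37e-15 to 0.0234). In that contrast 51.8% of the 17410 genes tested were called and 24.5% were called lower in chilled leaves. Without chilled replicate 1, which held all 3 chilled counts, the fitted log2 fold change was -10.3, which depends on the prior count of the fit and is no bound.
The fall in B104 turns on the control libraries that stood apart from all the others. For 16.8% of the genes tested, dhn1 among them, both B104 control libraries lay above the remaining 14. The chilled B104 libraries overlapped those of chilled B73, which had 0.413 and 1.12 CPM.

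In CML333, dhn1 was not detected on chilling, with 0 counts in each library, which allows levels up to 1.44 and 1.30 CPM at the floor of 3 counts. The control libraries had 31.5 CPM from 72 counts and 1.34 CPM from 3 counts. Only the first control library was above the floor. Both chilled libraries were below both controls, as for 32.2% of the genes tested. Taking the control counts without their counting error and a floor of 3 counts over the chilled group, the chilled level was at least 24.3-fold lower than that of the control group. The same bound was 46.1-fold for the first control library taken alone, and no fold can be given for the second. edgeR's quasi-likelihood test called the fall over all 16 libraries (adjusted p 0.0208), where 15.4% of genes were called and 5.36% were called lower. The call was lost without control replicate 1 (adjusted p 0.272), without chilled replicate 1 (0.0816) and without chilled replicate 2 (0.0524). It was also lost with a replicate block by the number in the description (0.0934). It held without both B104 controls (0.0319) and was lost when these and chilled CML333 replicate 2 were left out together (0.0786, an alternative chosen after seeing the data).

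The distance between the 2 unchilled CML333 libraries was itself unusual. It came to 3.79 on the log2(CPM + 1) scale, from 72 counts in the first library and 3 counts, the floor, in the second. Of the 17410 genes tested, 2 others were as far apart in this pair of libraries, and the median gap was 0.356, although the pair correlated at 0.962 over all tested genes. Both of those genes were also higher in replicate 1. On this scale, dhn1 differed more between the control replicates of this line than between the group means of chilled and control M37W (1.68).

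**Figure D2:**
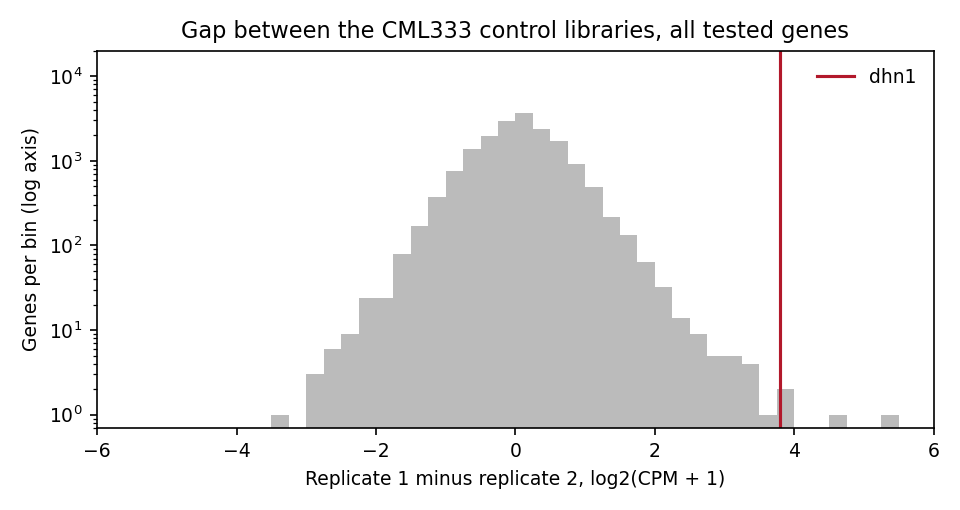
Difference between the CML333 control libraries, replicate 1 minus replicate 2 in log2(CPM + 1) (horizontal axis), for all 17410 tested genes (grey bars, number of genes per bin on a logarithmic axis), with dhn1 as the red line at 3.79. Nearly all genes lie near 0, and 2 lie farther out than dhn1.

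In M37W, dhn1 had 17.4 and 4.44 CPM in the chilled libraries (34 and 9 counts), against 2.47 and 1.81 CPM in the control libraries (5 and 4 counts). Both chilled libraries were above both control libraries, as they were for 27.7% of the genes tested, and the exact counting interval of the lower chilled library (2.03 to 8.42 CPM) overlapped those of both controls (0.802 to 5.76 and 0.494 to 4.64 CPM). Over the group the chilled level was 5.08 times the control level (exact 95% counting interval 2.44 to 11.8). The fitted log2 fold change was 2.38 (SE 1.17), and 5.81% of the genes tested had a higher one. It missed the threshold in edgeR's quasi-likelihood test over all 16 libraries (adjusted p 0.346), in which 0.408% of genes were called in M37W, and also in DESeq2 (0.312) and limma with voom (0.502). It passed with no filter on low counts (adjusted p 0.0152), where 1275 of 28431 genes were called in M37W, against 71 of 17410 in the main fit. It also passed in the B73 and M37W libraries fitted without that filter (0.00728, 3390 of 25144 genes called), an alternative added after the data were seen. Without chilled replicate 1 the log2 fold change was 1.09 (adjusted p 0.899), and without chilled replicate 2 it was 3.08 (0.447). The chilled replicates were themselves 1.76 apart on the log2(CPM + 1) scale, a gap that 1.05% of genes reached.

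In B73, dhn1 stayed at or below the floor in every library. The chilled libraries had 0.413 and 1.12 CPM (1 and 2 counts) and the control libraries 0 and 0.412 CPM (0 and 1 counts). The groups held 3 and 1 counts, so no fold is given, and a change was not detectable at this depth (edgeR adjusted p 0.684, with 3.46% of genes called in B73). The upper ends of the exact 95% counting intervals in the chilled libraries were 2.3 and 4.06 CPM, below the lower ends for both B104 controls (51.7 and 58.8 CPM) and for the first CML333 control (24.6 CPM).

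Ordered by mean level, the groups ran from control B104 (64.5 ± 5.54 CPM, SD, n = 2) through control CML333 (16.4 ± 21.3), chilled M37W (10.9 ± 9.17), control M37W (2.14 ± 0.464), chilled B73 (0.768 ± 0.502), chilled B104 (0.694 ± 0.981) and control B73 (0.206 ± 0.291) to chilled CML333 (0 in both libraries). Control B104 was separate from the next group. Control CML333 and chilled M37W overlapped. Control M37W lay apart from chilled M37W above it and from chilled B73 below it, by less than the counting intervals. The lowest 4 groups all overlapped their neighbours. Of the groups with a measurable level, the replicates were 1.13-fold apart in control B104 and 1.36-fold in control M37W, but 3.92-fold in chilled M37W. In control CML333 they were 23.5-fold apart, with the second library at the floor.

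The lines were compared in their response to chilling. On the log2(CPM + 1) scale, the chilled minus control difference of group means was 0.54 in B73 (both groups at or under the floor), -5.40 in B104, -3.13 in CML333 and 1.68 in M37W (not called). An F test in edgeR over the 4 responses called dhn1 (adjusted p 0.00514, 35.3% of genes called). It missed the threshold when both B104 controls were left out, which takes B104 out of the comparison (0.0603). Of the 6 pairs of lines, tested as an addition after the data were seen, the response of B104 differed from that of M37W (adjusted p 0.00302, 27.9% of genes called) and so did that of CML333 (0.0302, 4.79% called). The call for CML333 against M37W was lost without control replicate 1 of CML333 (adjusted p 0.172), control replicate 1 (0.0952), control replicate 2 (0.115) or chilled replicate 1 (0.129) of M37W, or control replicate 1 of B104 (0.051). It was also lost in limma with voom (0.063) and with a replicate block by description (0.073), and it held without both B104 controls (0.0399). The difference of B73 from B104 (0.0568, 27.3% called) and from CML333 (0.13, 6.27% called) missed the threshold, and the first of these passed without either CML333 control library (0.0135 and 0.0134). The differences of B104 from CML333 (0.68, 30% called) and of B73 from M37W (1, 0.00574% called) missed it too. Fitted sizes of these differences are left out, since with 0 to 3 counts in a group they depend on the prior count of the fit.

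The mean of the 4 responses did not pass (adjusted p 0.157 in edgeR, with 36.9% of genes called). In an exact permutation of temperature labels within lines, the mean difference was -1.58 on the log2(CPM + 1) scale (two-sided p 0.133 over 1296 arrangements, of which the smallest p is 0.00154). Without both B104 controls B104 has no response, and the fitted mean of the other lines was -1.24 (adjusted p 0.599), against -2.55 with B104. The exact permutation without the B104 libraries gave -0.30 (p 0.796). DESeq2 (adjusted p 0.017), limma with voom (0.0479) and edgeR with no low-count filter (0.00823) each called the mean as a fall, and so did edgeR without control replicate 2 of CML333 (0.0442). With B73 and M37W alone and no filter, an alternative added after the data were seen, the mean was positive (log2 fold change 2.097, adjusted p 0.0643). B73 and M37W are the lines whose own fitted responses were positive, so the sign of their mean follows from that choice.

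Within a temperature, the lines differed in dhn1 level. In chilled leaves M37W was the only line with more than 3 counts in the group, at 17.4 and 4.44 CPM, and the F test over the 4 lines passed (edgeR adjusted p 0.0327, 22.6% of genes called). That call was lost without chilled replicate 1 (adjusted p 0.322) or either control library (0.0505 and 0.0504) of M37W. It was also lost without either chilled B73 library (0.0701 and 0.0589), either B104 control (0.0689 and 0.0655) or chilled replicate 2 of B104 (0.0511). Without both B104 controls the adjusted p was 0.0508, in limma with voom 0.0753 and with a replicate block by description 0.161. In control leaves the 4 levels differed (edgeR adjusted p 0.000703, 63% of genes called). Without both B104 controls the levels of the other lines differed too (adjusted p 0.0383, 4880 of 16383 genes called). Among these lines, the 2 control CML333 libraries lay far apart, at 31.5 and 1.34 CPM.

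The genes whose profile was most like that of dhn1 were sought among 11232 identifiers that passed the low-count filter with a mean of at least 10 CPM, by Pearson's r of log2(CPM + 1) over the 16 libraries. The r reached 0.9 for 2 identifiers and was -0.9 or lower for 6. Zm00001d020442 (r = 0.923, Spearman's rho 0.893) had 123.1 and 585 CPM in B104 controls, 23.2 and 7.15 CPM in CML333 controls and 22.0 and 6.90 CPM in chilled M37W, and it was at most 10.4 CPM in the other libraries. Its 4 highest libraries were those of dhn1, namely both B104 controls, CML333 control replicate 1 and chilled M37W replicate 1. Control M37W replicate 2 came next, above the second replicates of CML333 controls and of chilled M37W. The noncoding RNA identifier ENSRNA049474492 (r = 0.917, rho 0.913) had 264.6 and 120.6 CPM in the B104 controls, with 31.9 and 7.15 CPM in CML333 controls, 19.5 and 8.38 CPM in chilled M37W and 35.6 and 9.52 CPM in control M37W, and at most 1.39 CPM in the remaining libraries. Unlike dhn1 it was no lower in control than in chilled M37W leaves.

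The most opposite profiles were those of Zm00001d017449 (r = -0.923) and Zm00001d044130 (r = -0.921). Zm00001d017449 stood at 27.0 and 11.7 CPM in B104 controls, 105.4 and 145.3 CPM in CML333 controls, 98.3 and 129.1 CPM in chilled M37W and 193.6 and 214.8 CPM in control M37W. It lay between 355.7 and 617.1 CPM in B73 of both temperatures and in chilled B104 and CML333, in each of which dhn1 was at or under the floor. dhn1 was at the floor in CML333 control replicate 2 as well, where Zm00001d017449 had 145.3 CPM. Zm00001d044130 was lowest in the same B104 controls, at 24.8 and 22.7 CPM. The files and RefSeq's table give no name for any of these 4 identifiers. Each r is taken over the same 16 libraries, the B104 controls included. Without the B104 controls and the second chilled CML333 library the values were 0.878 for Zm00001d020442, 0.818 for ENSRNA049474492, -0.847 for Zm00001d017449 and -0.815 for Zm00001d044130. Over those libraries another identifier, Zm00001d008984, had the highest r (0.932).

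**Figure D3:**
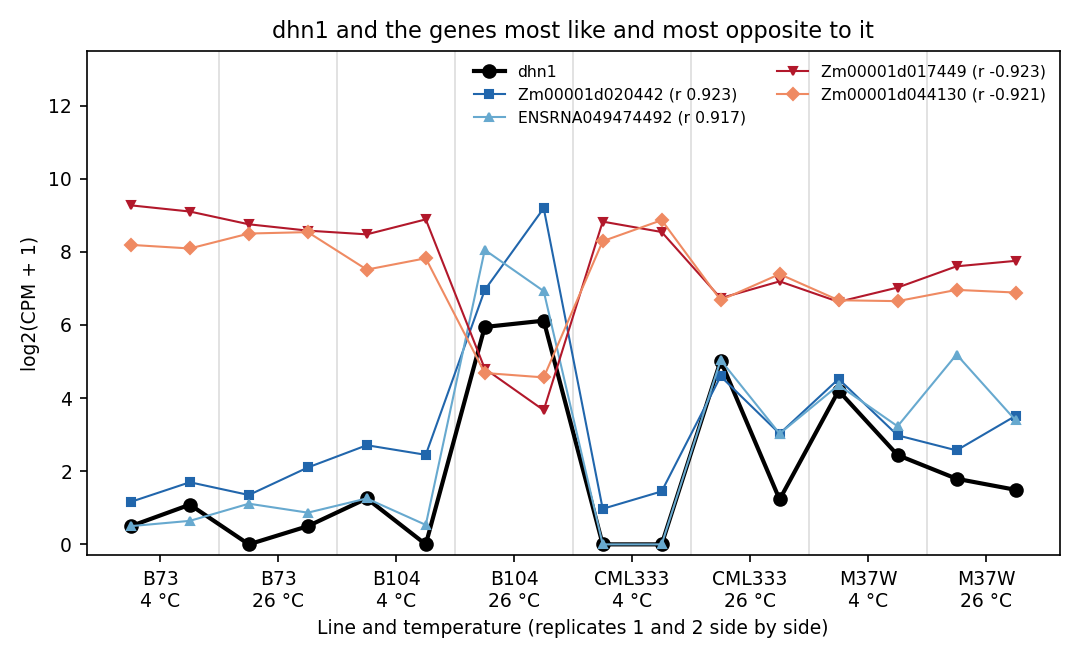
Level in log2(CPM + 1) (vertical axis) of dhn1 (black), of the identifiers most like it (blue) and of those most opposite to it (red and orange), by Pearson's r over the 16 libraries, with replicates 1 and 2 side by side within each line and temperature. Like dhn1, the blue profiles stand higher in B104 controls and in CML333 control replicate 1 than in chilled leaves of the same lines, where the red and orange ones stand higher instead.

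Other genes of the pathway were looked up by symbol in 10 lists (dehydrins, other late embryogenesis abundant proteins, abscisic acid synthesis and signalling, factors that bind the promoter elements of rab17, casein kinase subunits, cold response, and markers of leaf, kernel and root). Of 148 symbols, 60 were in RefSeq's table and 0 were paired there with an identifier of the count files, so none of them was analysed here.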

How the data were processed

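The authors deposited 1 table per library with raw counts of reads per gene identifier, made with STAR, per the submitters' processing notes. The sources used here give no versions, genome build, annotation or counting rule. Libraries were made from total RNA with a QuantSeq 3′ forward kit, per the labels' protocols. The authors also deposited a table of a signal per line, which was proportional to the counts (100% of values) and listed identifiers that reached 1 in at least 2 of 4 libraries. dhn1 was listed for B104, CML333 and M37W and not for B73, and these tables entered no test.

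Counts were fitted with edgeR 4.0.16 in R 4.3.3 (filterByExpr, TMM scaling, robust quasi-likelihood fit of 8 group means over all 16 libraries), with Benjamini-Hochberg adjustment over 17410 genes and calls at an adjusted p under 0.05, two-sided. dhn1 passed the filter in this fit, but not in the B73 and M37W libraries alone, nor in the libraries of B73, CML333 or M37W alone. Fitted fold changes use a prior count of 0.125. The alternatives used DESeq2 1.42.0 and voom of limma 3.58.1, other scalings and filters, replicate blocks and libraries left out. The permutation used Python 3.11.15. Intervals are exact Poisson or binomial at 95% and, like the floor of 3 counts, cover counting error only. The genes most like dhn1 were named by rule (the 2 highest and the 2 lowest r). The gene, lists and tests were chosen with earlier results of these data known.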

Additional observations from a re-analysis of the deposited data

Results flagged for a closer look

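The response of dhn1 to chilling differed among the 4 lines in edgeR's test of the difference itself (adjusted p 0.00514). Without both B104 controls, which leaves only the other lines to compare, it missed the threshold (0.0603). Between pairs of lines, it differed between B104, where it was lower in both chilled libraries, and M37W, where it was higher in both (adjusted p 0.00302). It also differed between CML333 and M37W (adjusted p 0.0302). In CML333 both chilled libraries had 0 counts, and the controls had 72 counts and 3 counts, the second being at the floor. The rise in M37W was itself not called (edgeR adjusted p 0.346). The B104 difference rests on the control libraries that stood apart, since the response of B104 is measured against them. The CML333 difference missed the threshold without control replicate 1 of CML333 (adjusted p 0.172), either control library (0.0952 and 0.115) or chilled replicate 1 (0.129) of M37W, or control replicate 1 of B104 (0.051). It also missed it in voom (0.063) and with a replicate block by description (0.073), and over all alternatives its adjusted p ran from 8.37e-11 to 0.172.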

How the results depend on the processing

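Values below are log2 fold changes or, for differences among more than 2 groups, the largest minus the smallest fitted log2 value; those that involve B73, chilled B104 or chilled CML333 depend on the prior count. Of 402 values over 15 results and their alternatives, 349 kept their direction and their side of the threshold. The fall in CML333 lost its call with a replicate block by the number in the description (-5.94) and with the B104 controls and the second chilled CML333 library left out (-8.05). The M37W response passed with no low-count filter (2.38) and in B73 and M37W alone without the filter (2.38). The mean response passed as a fall in DESeq2 (-2.29), voom (-1.94) and with no filter (-2.54). In B73 and M37W alone, whose own fitted responses were positive, the mean was positive too (2.097 in the fit, 1.11 in the permutation, two-sided exact p 0.0556). The difference among responses was lost without both B104 controls (10.5), with chilled CML333 replicate 2 also left out (10.4) and in B73 and M37W alone (0.57). In each of these B104 was no longer compared. The difference among chilled levels was lost in voom (5.29), with the description block (6.02), without both B104 controls (7.69) and with those and the second chilled CML333 library left out (7.63). Between pairs of lines, B73 minus B104 passed in DESeq2 (8.74), voom (8.40), with no filter (8.20) and with the block by title (8.59) or description (9.94). B73 minus CML333 passed in DESeq2 (9.59) and with no filter (9.83). CML333 minus M37W was lost in voom (-6.74), with the description block (-8.15) and in the 13 libraries (-10.4). B104 minus CML333 changed sign in voom (-1.95) and with the description block (-0.47), as did B73 minus M37W with that block (1.32), all 3 uncalled. The causes were not tested. The number of identifiers with r of at least 0.9 was 4 by Spearman and 1 in the 13 libraries.

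With each library left out in turn, taking a lone library to vary as the other groups do, the fitted values ran from 0.94 to 3.88 for B73, -10.3 to -5.40 for B104, -9.00 to -4.55 for CML333 and 1.09 to 3.08 for M37W. They ran from -3.54 to -1.67 for the mean, 8.76 to 12.7 for the difference among responses, 7.36 to 10.3 among control levels and 6.38 to 8.36 among chilled levels. For pairs they ran from 7.22 to 12.1 (B73 minus B104), 6.37 to 11.9 (B73 minus CML333), -1.44 to 1.49 (B73 minus M37W), -2.20 to 2.69 (B104 minus CML333), -12.7 to -7.45 (B104 minus M37W) and -11.4 to -6.94 (CML333 minus M37W), and in the permutation from -2.05 to -1.10. With each line left out, the permutation gave -2.66 (without M37W) to -0.30 (without B104).

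The replicate numbers share no stated source. Within lines, deviations of same-numbered libraries correlated at -0.0382 to 0.103 under either numbering, so no pairing was evident within a line. With 2 libraries a group this check cannot tell the numberings apart, and a source shared across lines was not checked. With a replicate block by title, the adjusted p was 0.000996 in B104, 0.025 in CML333 and 0.356 in M37W, and 113 genes were called in M37W, against 71. With the block by description, the adjusted p was 0.00041 in B104, 0.0934 in CML333 and 0.292 in M37W, and 180 genes were called in B73, against 602, and 1331 in CML333, against 2677. At 0 to 9 counts per library, depth limits every level of dhn1 outside control B104, control CML333 replicate 1 and chilled M37W replicate 1.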
